A study of Mus musculus with 6 samples.

Results

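The GATA factors Gata1 to Gata6, the related factor Trps1 and the Fog cofactors Zfpm1 and Zfpm2 were followed in lung epithelial cells with reduced Nkx2-1. These 9 genes were chosen by name, as the whole family with its cofactors, from 19938 genes that the array annotation lists under 1 symbol, and all 9 were measured. The cells were MLE-15, an epithelial line grown from tumors in the lungs of transgenic mice, whose transgene drives simian virus large T antigen from the promoter of human surfactant protein C. One group of 3 lines was transduced with lentivirus carrying a mix of 3 Nkx2-1 shRNAs in the pLKO.1 vector, and the other group of 3 lines received the empty pLKO.1 vector. Both groups were selected with puromycin, and both carry the large T antigen. The labels give 48 h for every sample, whereas the methods describe independently transduced stable lines and give no time. RNA of each line was hybridized to 1 Affymetrix Mouse Gene 1.0 ST array. The labels name the control an empty vector and the methods call it non-silencing, so whether it carries a hairpin is not settled here. The shRNAs were used as a mix, and the arrays cannot tell the effect of one from another.

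GATA factors bind the sequence from which they take their name through paired zinc fingers. Gata1, Gata2 and Gata3 are best known in blood cells and Gata4, Gata5 and Gata6 in heart and endoderm, where Gata6 is the family member of the developing lung epithelium. GATA proteins recruit the Fog proteins, which do not bind this sequence themselves and which can turn activation into repression. Trps1 carries a lone GATA-type finger and acts as a repressor, and its human counterpart is mutated in trichorhinophalangeal syndrome. Gata6 is known to bind the NKX2-1 protein and to activate surfactant genes together with it.

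Array values are given as log2 RMA values, so a difference of 1 is a doubling. They are compared between groups for the same transcript cluster (the probes that stand for a transcript) and not between genes. A level was called above background where the mean of a group exceeded 4.35, the 95th percentile of 1248 transcript clusters of olfactory, taste and vomeronasal receptor genes. Most of these are known from sensory tissue, although bitter taste receptors also occur in airway epithelium. A gene was called higher or lower in the knock-down at an adjusted p under 0.05 by limma, with Benjamini-Hochberg adjustment over all 35557 transcript clusters. Correlations between arrays over all transcript clusters ran from 0.991 to 0.994 within groups and from 0.979 to 0.983 between groups. Nkx2-1 itself (transcript cluster 10400474) stood at 7.91, 7.98 and 7.83 in the knock-down against 8.61, 8.61 and 8.59 with the empty vector. The groups did not overlap, and the mRNA was at 61.8% of control (limma log2 fold change −0.69 with SE 0.076 and adjusted p = 0.00155). An exact two-sided permutation test gave p = 0.1, the smallest that 3 against 3 lines allow. Under a test that allows unequal variances, Nkx2-1 was no longer called (adjusted p = 0.0550).

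All 5 epithelial markers lay above background, with Cdh1 at 10.99 ± 0.056 and 11.02 ± 0.016 (SD, n = 3) in knock-down and control, and 2 of them were higher in the knock-down, Krt19 by 1.19 and Krt18 by 0.44 on the log2 scale. Their summed log2 values ran from 55.08 to 55.62 in the knock-down and from 53.10 to 53.46 in the control. Of 9 alveolar type II markers, 7 were above background in at least 1 group, 2 were higher and 3 lower, and their sums ran from 55.36 to 56.11 and from 58.69 to 59.97. Sftpc made up most of this difference between the sums (log2 fold change −3.65). The other markers called lower were Sftpa1 (−0.41) and Abca3 (−0.40), and those higher were Napsa (0.58) and Sftpd (0.44). The part of these marker shifts in the results given here was not tested. Of 7 fibroblast markers none passed the test in either direction, 4 were above background, and their summed log2 values ran from 29.28 to 29.76 in the knock-down and from 29.35 to 29.75 in the control. Of 7 endothelial markers Vwf was higher (0.41) and Tek lower (means of 3.77 in the knock-down and 5.77 in the control), and their sums ran from 28.09 to 29.29 and from 29.65 to 30.62. Of these 7, 3 were above background in at least 1 group, namely Vwf, Tie1 and Tek, and 4 were not, among them Pecam1, Cdh5 and Kdr, which define endothelium. The sums of 6 leukocyte markers ran from 23.73 to 24.75 and from 24.52 to 26.04, with no marker called, 2 above background (Cd68 and Cd3e) and 4 below it in both groups, among them Ptprc, which is shared by all leukocytes. The sums of 5 erythroid and megakaryocyte markers ran from 21.59 to 21.70 and from 21.31 to 21.94, again with no marker called. Of these 5, 3 were above background (Itga2b, Slc4a1 and Gp9) and 2 below it in both groups. In RNA of whole cultures, fewer cells of a type and less RNA per cell cannot be told apart.

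Of the 9 genes, 1 was higher in the knock-down (Gata1), 2 were lower (Trps1 and Gata4) and 6 did not pass the test. Among all 19938 genes, 10.7 percent were higher and 9.88 percent lower by the same rule. Among the 13568 genes above background in at least 1 group, 15.3 percent were higher and 13.9 percent lower. Of the 9 genes, 8 were above background in at least 1 group and 7 in both. The groups did not overlap for 5 of the 9 genes (2 higher, 3 lower in the knock-down), where 40.2 percent of all genes had groups that did not overlap. The median log2 fold change of the 9 genes was 0.046, against −0.0070 over all genes.

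**Figure D1:**
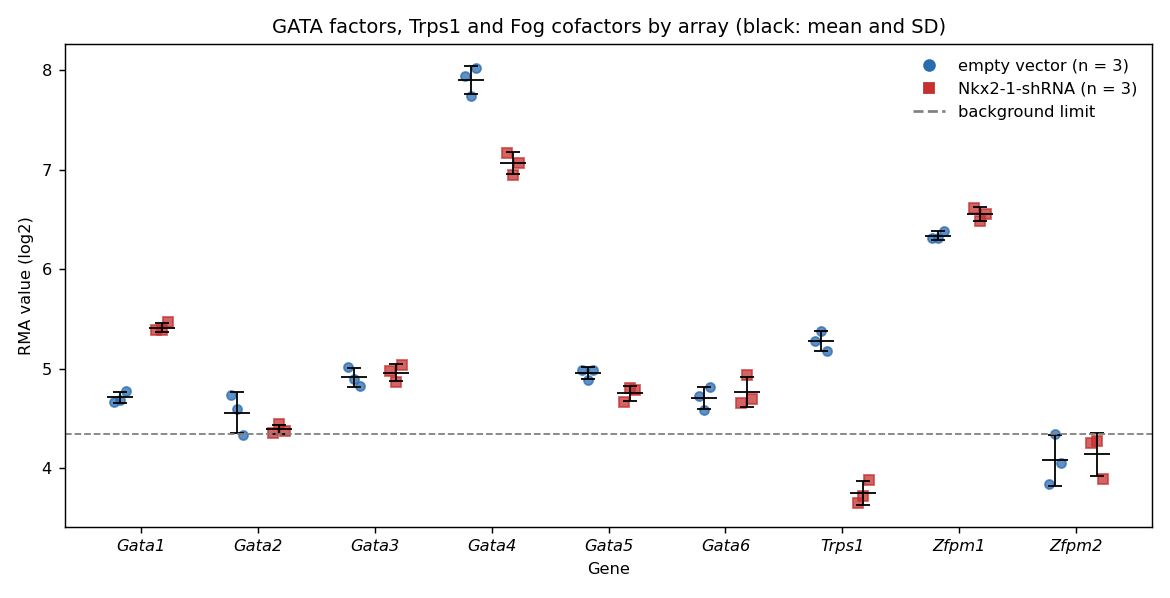
Log2 RMA values of the 9 genes (y axis) in the 3 empty vector lines (circles) and the 3 Nkx2-1-shRNA lines (squares), black bars giving the group mean ± SD, and the background limit of 4.35 dashed. The squares of Gata1 sit above its circles, those of Gata4 and Trps1 sit below, and the Trps1 squares lie under the background limit.

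Trps1 had the largest difference among the 9 genes. Its transcript cluster with the higher mean (10428536, chromosome 15) had values of 3.65, 3.72 and 3.88 under Nkx2-1 knock-down, against 5.27, 5.38 and 5.18 in the empty vector lines. The lowest control line lay 1.30 above the highest knock-down line, and all knock-down lines lay below the background limit. The group means were 3.75 ± 0.12 and 5.28 ± 0.098 (SD, n = 3), which differ by a log2 fold change of −1.53 (SE 0.097, 95% confidence interval −1.76 to −1.30, limma adjusted p = 0.000195). Since the knock-down level was within background, Trps1 was at least 1.91-fold higher in the control, taking the background limit as the knock-down level. The other Trps1 cluster (10428534) had values of 3.33, 2.99 and 2.79 in the knock-down and 4.99, 4.86 and 4.50 in the control. It moved the same way, by −1.75 on the log2 scale (SE 0.18, limma adjusted p = 0.00122), or at least 1.35-fold counted from the background limit. In the limma fit used here, Trps1 was the single gene of the 9 that also passed the study's threshold (adjusted p under 0.0005 and a log2 fold change beyond 0.6). The study's own selection by this threshold is not reported here. Of all genes, 1.88 percent passed the threshold in this fit. Whether Gata1 and Gata4 passed it depended on the rows fitted. With only the transcript clusters of 1 symbol in the fit their adjusted p were 0.000106 and 0.000135, and with the transcript clusters of a gene averaged 9.08e-05 and 0.000118, all within that threshold.

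Gata4, an activator of heart and endoderm genes (10420747, chromosome 14), had log2 values in the Nkx2-1-shRNA lines of 7.17, 6.95 and 7.07, against 7.94, 7.75 and 8.02 in the empty vector lines. All 6 values were above background, and a gap of 0.58 separated the groups. Its mean fell from 7.90 ± 0.14 to 7.06 ± 0.11 (SD, n = 3), or to 55.9% of control (log2 fold change −0.84, SE 0.10, 95% confidence interval −1.09 to −0.59, limma adjusted p = 0.00260).

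Gata1, the master factor of red cells and platelets (10603417, chromosome X), moved the other way. It had log2 values in the Nkx2-1-shRNA lines of 5.39, 5.39 and 5.46, against 4.67, 4.69 and 4.78 in the empty vector lines. Every knock-down line lay above every control line by at least 0.61, and all 6 values were above background. The mean rose from 4.71 ± 0.059 to 5.41 ± 0.044 (SD, n = 3), to 163% of control (log2 fold change 0.70, SE 0.076, 95% confidence interval 0.52 to 0.88, limma adjusted p = 0.00148). None of the erythroid and megakaryocyte markers given above was called. Of these, Alas2, the heme synthesis enzyme of red cells, was below background in both groups (4.22 ± 0.062 and 4.20 ± 0.20 in knock-down and control). Itga2b (5.55 and 5.54), Slc4a1 (4.86 and 4.95) and Gp9 (4.61 and 4.62) were above it in both.

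**Figure D2:**
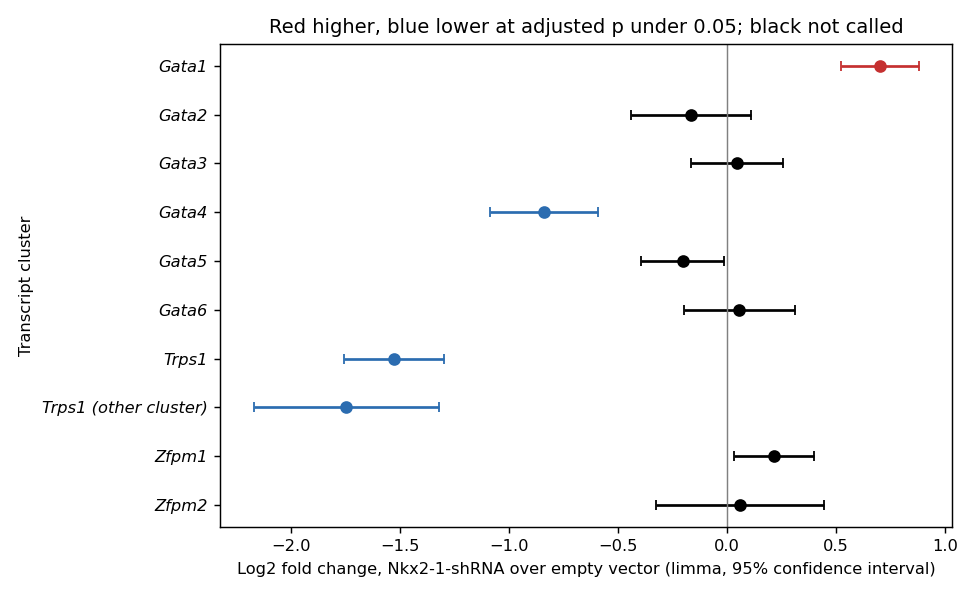
Log2 fold change of each transcript cluster, Nkx2-1-shRNA over empty vector (x axis), with 95% confidence intervals from limma; red marks higher, blue lower and black not called at an adjusted p under 0.05. The intervals of both Trps1 clusters and of Gata4 lie left of 0 and that of Gata1 lies right of 0, while those of Gata2, Gata3, Gata6 and Zfpm2 span 0.

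The other GATA genes did not pass the test. Gata6, the lung family member (10453857), had log2 values in the Nkx2-1-shRNA lines of 4.66, 4.94 and 4.70, against 4.72, 4.59 and 4.81 in the empty vector lines, all above background. The groups overlapped, and the log2 fold change was 0.058 (SE 0.11, 95% confidence interval −0.20 to 0.31, limma adjusted p = 0.785). The interval leaves room for a fall to −0.20 or a rise to 0.31, smaller in size than the differences of Gata4, Gata1 and Trps1.

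Gata5, a factor of heart and gut (10490491, chromosome 2), had values of 4.67, 4.80 and 4.78 in the knock-down and 4.99, 4.88 and 4.99 in the control. The groups did not overlap, but by a gap of only 0.083. The log2 fold change of −0.20 (SE 0.080, 95% confidence interval −0.39 to −0.013) did not pass after adjustment (limma adjusted p = 0.144). Gata5os, the RNA from the opposite strand of the locus, has a transcript cluster of its own (10479369) with a log2 fold change of −0.020 (limma adjusted p = 0.950).

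Gata2, a factor of blood progenitors and endothelium (10539873, chromosome 6), had values of 4.36, 4.44 and 4.37 in the knock-down and 4.74, 4.59 and 4.33 in the control. The third empty vector line lay below all knock-down lines and below the background limit, so the groups overlapped (log2 fold change −0.16, SE 0.12, 95% confidence interval −0.44 to 0.11, limma adjusted p = 0.415). The value leaned on single lines, at −0.28 without that line (adjusted p = 0.102) and at −0.072 without the first empty vector line (adjusted p = 0.744). Gata3, a factor of T cells and luminal epithelium (10479981, chromosome 2), had values of 4.98, 4.87 and 5.03 against 5.01, 4.90 and 4.82, with overlapping groups (log2 fold change 0.046, SE 0.089, 95% confidence interval −0.16 to 0.26, limma adjusted p = 0.794).

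Neither of the Fog cofactors was called. Zfpm1, the partner of Gata1 in red cells and platelets (10576090, chromosome 8), had log2 values in the Nkx2-1-shRNA lines of 6.62, 6.48 and 6.56, against 6.31, 6.31 and 6.39 in the empty vector lines, all above background. The groups did not overlap, by a gap of 0.098, and the log2 fold change of 0.22 (SE 0.077, 95% confidence interval 0.034 to 0.40) did not pass after adjustment (limma adjusted p = 0.110). It passed once the median of each array had been subtracted (log2 fold change 0.30, adjusted p = 0.0431), which raised every log2 fold change by 0.080. Zfpm2, a partner of Gata4 in the heart (10423902, chromosome 15), had values of 4.25, 4.27 and 3.89 against 3.84, 4.35 and 4.05. Both group means were below background and the groups overlapped (log2 fold change 0.060, SE 0.16, 95% confidence interval −0.33 to 0.45, limma adjusted p = 0.858).

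The calls of Gata1, Gata4 and Trps1 held in all 17 other ways of processing or testing the values, including each line left out in turn, other than the study's stricter threshold. Their adjusted p ran from 9.08e-05 to 0.0195 for Gata1, from 0.000118 to 0.0434 for Gata4 and from 1.26e-06 to 0.0177 for Trps1, highest in each case where variances were allowed to differ between groups. For Gata5 the adjusted p never fell below 0.0931 and for Gata3 never below 0.395. The SDs between lines of a group ran from 0.043 to 0.26 for the 9 genes, with a median of 0.105 over all genes. The highest were those of Zfpm2 (0.21 in the knock-down and 0.26 in the control) and of Gata2 in the control (0.21).

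**Figure D3:**
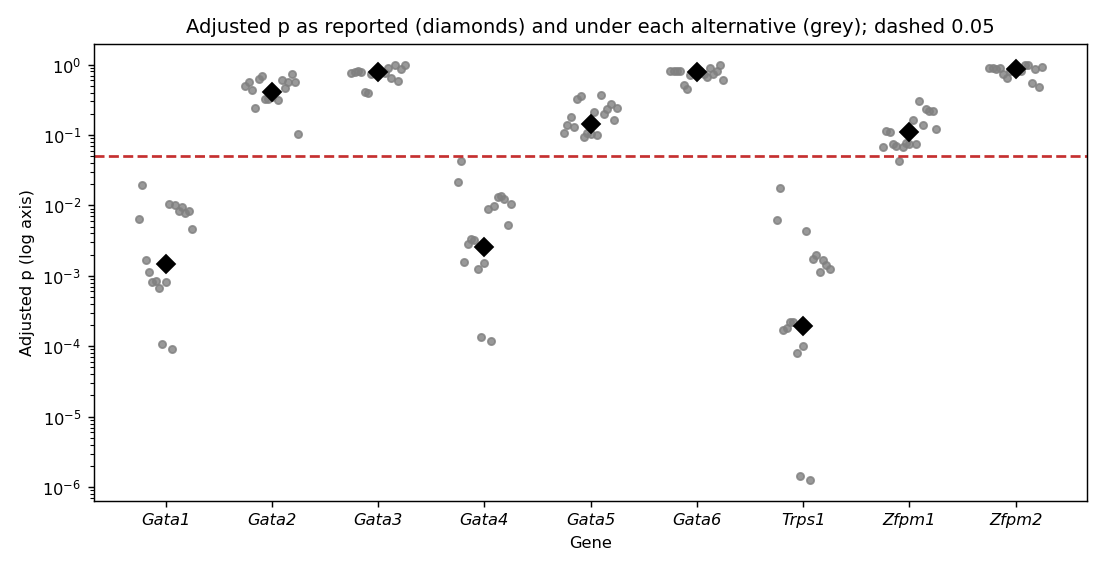
Adjusted p on a log axis for each of the 9 genes, as reported (diamonds) and under each alternative (grey points), with the threshold of 0.05 dashed. All points of Gata1, Gata4 and Trps1 lie below the line, and 1 point of Zfpm1, that after median centring, does so as well.

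Some of the 9 genes are named by the study as predicted targets of miR-200c, a microRNA that it links to Nkx2-1. MicroRNAs pair with messenger RNAs mainly through their seed, bases 2 to 8. Gata4, Trps1, Gata2 and Zfpm2 are on that list of predicted targets, and Gata1, Gata3, Gata5, Gata6 and Zfpm1 are not. The listed genes thus comprise both genes called lower, 1 gene that did not pass and 1 below background, and none of those not listed was called lower. Among all genes, 9.88 percent were called lower, and the share among all listed genes was not counted. The members were chosen with these results known, and the microRNAs were not analysed here, so nothing is read from this split. The search for microRNAs that share the seed of miR-200c left out a chromosome, so the set may be incomplete. The mature sequences of miR-200c and of the relatives found are shown because the same seed would pair with the same predicted sites. They are RefSeq sequences written 5′ to 3′ with the seed in capitals, on the minus strand of GRCm38.p6 at chr6:124718324-124718346 for miR-200c-3p, chr4:156055685-156055706 for miR-200b-3p and chr4:156053916-156053937 for miR-429-3p.
mmu-miR-200c-3p: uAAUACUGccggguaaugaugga
mmu-miR-200b-3p: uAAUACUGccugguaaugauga
mmu-miR-429-3p: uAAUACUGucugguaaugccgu

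RefSeq promoters, from 250 bases before to 50 after the start, were at hand for Gata1, Gata2, Gata3, Gata5 and Zfpm1, and of these only Gata1 was called. The core of the NKX2-1 site was searched as CAAG on both strands, which reads CTTG where it lies on the opposite one. Matches lay in promoters of each of these genes, those not called included. In that of Gata3 they start 218 and 94 bases upstream and 34 bases after the start. The Gata1 promoter held 3 matches, against a median of 2 and at least 1 match in 90.6% of all 32851 promoters. The 3 windows of 30 bases, on the minus strand of chromosome X of GRCm38.p6 with the core in capitals, hold cores that start 212, 191 and 87 bases upstream (chrX:7968106-7968135, chrX:7968085-7968114 and chrX:7967981-7968010), and the first overlaps the second.
Gata1, upstream window: atgaaacttagatCTTGactaattgctcat
Gata1, middle window: attgctcatatgaCTTGactggacactgga
Gata1, downstream window: aaaaggtcctccaCAAGgaggcggcacacc

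A GATA core was searched on both strands as TGATAA with A in place of its first letter or G in place of its last also allowed. It was in 29.8% of all promoters and, among these genes, in that of Gata3 alone. A match is a description of letters and not a bound site.

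Most genes around Trps1, Gata4 and Gata1 were not called. Gene order was taken from RefSeq GRCm38.p6, with the 10 nearest genes above background on each side. Of 20 neighbors of Trps1, 1 was higher and 2 lower (median log2 fold change 0.046), and none had a value below that of Trps1. Their values ran from −0.64 for Mal2, a transcytosis gene, to 1.91 for Angpt1, the gene of an endothelial growth factor and ligand of Tek. Of 20 neighbors of Gata4, 2 were higher and 3 lower (median 0.048), from −1.76 for Mtmr9 to 0.45 for Fam167a, and 1 lay below Gata4. Of 20 neighbors of Gata1, 2 were higher and 3 lower (median 0.012), from −0.62 for the sterol isomerase gene Ebp to 0.49 for Porcn, which encodes the enzyme that acylates Wnt proteins, and all 20 lay below Gata1. These neighbors were named for their values. Around the genes that were not called, medians ran from −0.11 (Gata3) to 0.20 (Gata6), where 7 of 20 neighbors were higher and 2 lower.

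**Figure D4:**
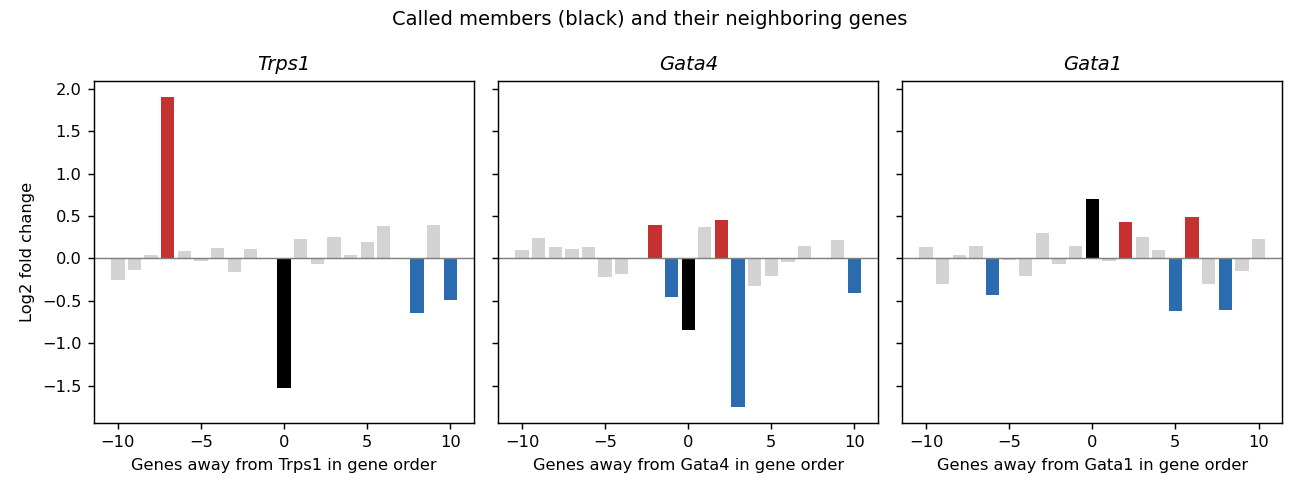
Log2 fold changes, Nkx2-1-shRNA over empty vector (y axis), of Trps1, Gata4 and Gata1 (black) and of the 10 nearest genes above background on each side in gene order (x axis); red is higher, blue lower and grey not called. Most neighbors are grey and near 0, with Angpt1 at 1.91 near Trps1 and Mtmr9 at −1.76 near Gata4 standing out.

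The profiles most like those of the called genes were found by Pearson's r over the 6 arrays among genes above background. With 3 arrays in each of the groups, such values mostly restate the difference between groups and are given as a description. Those of Trps1 were Foxred2, of the endoplasmic reticulum (r = 0.999, log2 fold change −1.15), and the inositol kinase gene Ipmk (r = 0.999, −0.51). Those of Gata4 were the amino acid transporter gene Slc36a1 (r = 1.00, −0.91) and the actin regulator gene Wasf1 (r = 0.999, −0.89). Those of Gata1 were the ubiquitin-conjugating enzyme gene Ube2k (r = 0.999, 0.31) and the myosin gene Myo1c (r = 0.999, 0.78). Likewise found were Gpatch2l and Scamp5 for Gata5 (r = 0.992 each) and Il6ra and Med13l for Zfpm1 (r = 0.995 and 0.994). For the genes with overlapping groups they were Lct and Zfp940 for Gata2 (r = 0.997 and 0.991), Npat and Ncstn for Gata3 (r = 0.998 and 0.997) and 1700020L24Rik and Il13 for Gata6 (r = 0.983 and 0.980). Each of these r was picked as the highest among all genes above background over only 6 arrays, so nothing is read from them.

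Around the GATA factors, 118 genes of 8 lists (binding partners, cofactors, related zinc finger genes and known downstream genes) were measured. Of these, 13 were higher and 18 lower in the knock-down (the targeted Nkx2-1 among the 18), 87 were not called, and 88 were above background in at least 1 group. Their median log2 fold change was −0.029. Over all genes, 10.7 percent were higher and 9.88 percent lower, and over genes above background 15.3 and 13.9 percent. The counts of the 8 lists are to be read beside these shares, and no list was tested as a set. The counts of called list genes depended on single lines. They were 6 higher and 10 lower without the first Nkx2-1-shRNA line, and 8 and 10 without the second. Without the third, 8 were higher. With replicate number as a block, 8 were higher.

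Of 24 factors that bind or act beside GATA proteins, 4 were higher, 6 were lower and 14 were not called (median −0.047). Nkx2-1, whose fall is the treatment, is 1 of the 6. The forkhead factor Foxa1, which opens chromatin in endoderm, had values of 7.41, 7.45 and 7.25 in the knock-down and 8.04, 8.21 and 8.44 in the control, so that the groups did not overlap (log2 fold change −0.85, limma adjusted p = 0.00434). Its relative Foxa2 was lower by a log2 fold change of −0.44 (adjusted p = 0.0375). The Notch effector Hey1 was also lower (−0.57, adjusted p = 0.0254), as was its relative Hey2, which lay below background in both groups (−0.46, adjusted p = 0.0317), while the LIM protein gene Lmo4 was higher (0.45, adjusted p = 0.0161). Among partners of Gata4 in the heart, Nkx2-5 (−0.012) and Tbx5, which lay below background, were not called. By contrast, Mef2a was higher (0.40, adjusted p = 0.0239) and Srf lower (−0.43, adjusted p = 0.0139). The Lim-domain partner of Gata1, Lmo2, had a log2 fold change of −0.14 and the erythroid factor Klf1 one of −0.13, neither of them called. Runx1, on the same list, was higher (0.35, adjusted p = 0.0431).

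Of 21 measured coactivators and corepressors, all above background, 2 were higher, 4 were lower and 15 were not called (median −0.17). The acetyltransferase gene Ep300, an activator partner of GATA factors, had means of 8.69 ± 0.20 and 9.15 ± 0.16 (SD, n = 3) and did not pass (log2 fold change −0.45, limma adjusted p = 0.0595). Both Hdac1 (−0.57, adjusted p = 0.00339) and Hdac2 (−0.50, adjusted p = 0.0159), the deacetylases of the NuRD complex that Fog proteins recruit, were lower. The methyl-CpG binding gene Mbd2 of the same complex was higher (0.55, adjusted p = 0.00324). Ctbp1, a corepressor that binds Fog proteins, was higher as well (0.50, adjusted p = 0.0146). Of 8 other genes with GATA-type zinc fingers, none was higher and 2 were lower (median −0.20). They were the corepressor gene Rere (−0.54, adjusted p = 0.0100) and the NuRD subunit gene Mta1 (−0.45, adjusted p = 0.0130), whereas Gatad1 stood at 0.14 (adjusted p = 0.362).

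Of 20 measured lung and endoderm genes known downstream of Gata6 and Gata4, 4 were higher, 6 lower and 10 not called (median −0.047). Sftpc, the surfactant protein C gene, had values of 4.10, 4.29 and 3.85 in the knock-down, all below background, and 7.22, 7.92 and 8.05 in the control. It was at least 10.4-fold higher in the control, counted from the background limit (log2 fold change −3.65, SE 0.23, limma adjusted p = 0.000195). Wnt7b, a ligand gene of lung epithelium with a known GATA-bound promoter, went the other way, from 5.39 ± 0.11 to 6.59 ± 0.13 (SD, n = 3) (log2 fold change 1.20, adjusted p = 0.000573). The laminin gene Lamb1 was lower (−0.74, adjusted p = 0.00236) and Lamc1, whose product joins the same trimers, was higher (0.65, adjusted p = 0.00569).

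**Figure D5:**
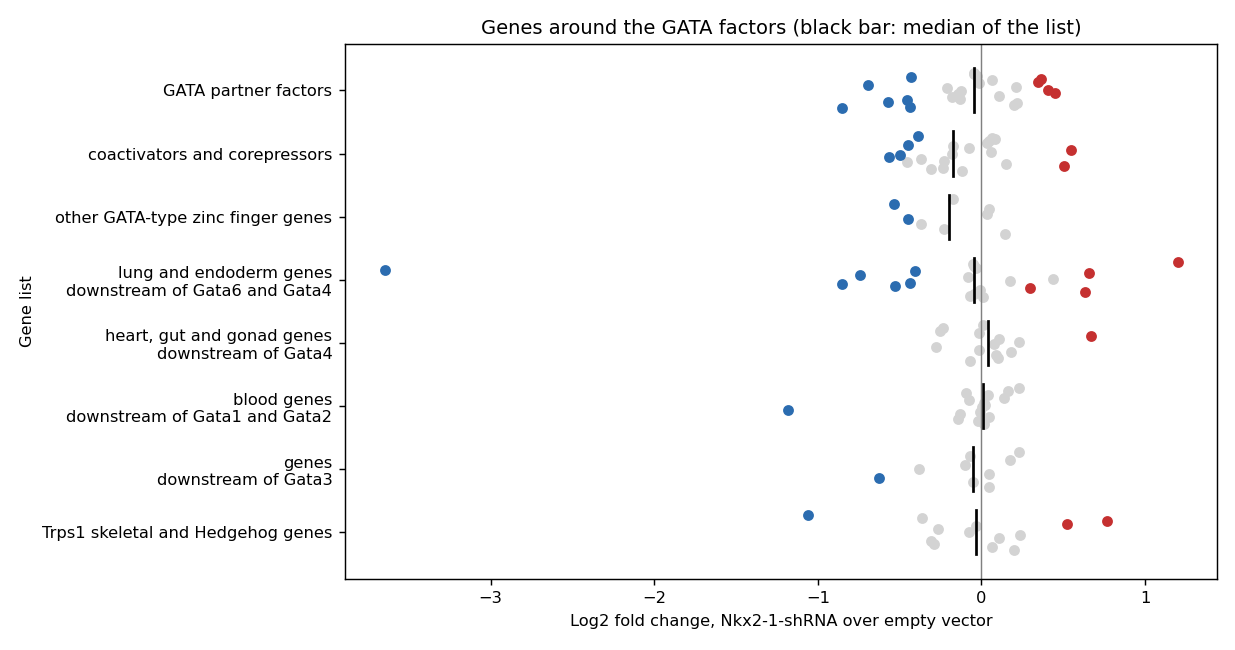
Log2 fold changes, Nkx2-1-shRNA over empty vector (x axis), of the measured genes of 8 lists around the GATA factors (rows); each point is a gene, red higher, blue lower and grey not called at an adjusted p under 0.05, and the black bar is the median of the list. The point at −3.65 is Sftpc and that at 1.20 is Wnt7b, and the medians of the lists lie between −0.20 and 0.042.

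Of 14 measured heart, gut and gonad genes downstream of Gata4, 1 was higher, none was lower and 13 were not called (median 0.042). The exception was the natriuretic peptide gene Nppb (0.67, limma adjusted p = 0.00580), while Nppa, its relative, stood at 0.11 (adjusted p = 0.402). Of 16 measured blood genes downstream of Gata1 and Gata2, 6 were above background, and none was higher although Gata1 was. One was lower, the histidine decarboxylase gene Hdc, with values of 4.96, 5.22 and 4.88 in the knock-down and 6.20, 6.17 and 6.24 in the control (log2 fold change −1.18, adjusted p = 0.000667). Of 9 measured genes downstream of Gata3, Esr1, the estrogen receptor gene, was lower (−0.62, adjusted p = 0.0292), and the other 8 were not called. Of 13 measured skeletal and Hedgehog genes that Trps1 is known to control or act beside, 2 were higher, 1 was lower and 10 were not called (median −0.036). Sox9, the cartilage factor that also acts in the lung bud, was higher (0.77, adjusted p = 0.00434), as was the ubiquitin ligase gene Rnf4, whose product binds Trps1 (0.52, adjusted p = 0.0202). Wif1, the gene of a secreted Wnt inhibitor, was lower (−1.06, adjusted p = 0.000635), from 5.38 ± 0.067 to 4.32 ± 0.12 (SD, n = 3). Its knock-down mean lay below the background limit, with values of 4.20, 4.32 and 4.44, so the size of this difference is uncertain.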

How the data were processed

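Expression was read from 6 Affymetrix Mouse Gene 1.0 ST arrays, 1 for each MLE-15 line and 3 per group by the labels. The authors' processing, in Expression Console 1.1, was Robust Multi-Array Analysis (RMA), which corrects background, quantile-normalizes and summarizes probes into the deposited log2 values. Arrays give no read depth, and their number limits the precision. They ranged from 0.46 to 13.69 over 35557 transcript clusters, of which 21789 carried 1 gene symbol, 1621 several and 12147 none in the annotation given. A gene was read from its single-symbol transcript cluster with the highest mean over the 6 arrays.

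The 2 groups were fitted with limma 3.58.1 under R 4.3.3 by lmFit and eBayes without a block (residual degrees of freedom 4, prior 2.86), with Benjamini-Hochberg adjustment over all transcript clusters. Fits were tested on simulated data. The background limit came from 1231 receptor genes (median 2.60; the alternative limit was the 90th percentile, 3.97). Where every array of a group lay below it, a fold was counted from the limit. The alternatives tried were array weights, a prior with trend and robust fit, the methods' t-test and its form for unequal variances, repeated quantile normalization, median centring, filters on dim or multiple-symbol rows, averaging all transcript clusters of a gene, the study's threshold, each line left out and the replicate number as a block. The members and gene lists were chosen with earlier results of these data known. Genes named were the members, Nkx2-1, the first gene of each list and up to 4 of its called genes with the largest change, and the 2 genes most correlated with each member above background. Lmo2, Klf1, Runx1, Nkx2-5, Tbx5, Mef2a, Srf, Foxa2 and the neighbors were named beside this rule. Some genes of the lists are not reported here.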

Additional observations from a re-analysis of the deposited data

How the results depend on the processing

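The calls of Gata1, Gata4 and Trps1 kept their direction and their side of the threshold in all 17 alternatives. With the study's threshold applied to the limma fit over all rows, Trps1 alone was called, which left 0 members higher and 1 lower. Gata1 and Gata4 also lay within this threshold when only single-symbol rows were fitted (adjusted p = 0.000106 and 0.000135) or clusters averaged (9.08e-05 and 0.000118). Median centring gave 2 members higher, the second being Zfpm1. With each line left out in turn, 1 to 1 members were higher and 2 to 2 lower. Nkx2-1 kept its log2 fold change of −0.69 but missed the threshold with unequal variances (adjusted p = 0.0550). It also missed the study's threshold in the limma fit over all rows (adjusted p = 0.00155). Like Gata1 and Gata4, it lay within that threshold with only single-symbol rows fitted (limma adjusted p = 0.000117) or clusters averaged (9.95e-05). Its log2 fold change ran from −0.73 to −0.66 with lines left out. Uncalled values near 0 turned sign, with Gata6 between −0.029 and 0.11 and Zfpm2 between −0.061 and 0.19 over the lines left out. Gata6 was at −0.029 without the second Nkx2-1-shRNA line and at −0.0019 without the second empty vector line, and Zfpm2 was at −0.0068 without the second Nkx2-1-shRNA line and at −0.061 without the first empty vector line. Of the list genes, 4 were higher and 5 lower with unequal variances, and 0 and 1 at the study's threshold. Leaving out lines gave 6 to 11 higher and 10 to 17 lower, with fewer samples. The cause of the other shifts was not tested. Deviations from the group means correlated at 0.089, 0.218 and −0.055 between same-numbered lines of the 2 groups. Pairs with different numbers ran from −0.287 to 0.222. With 3 lines per group, such values cannot decide whether the numbers pair the lines. With the replicate block 8 list genes were higher, and no member's call changed. By the methods' t-test, Gata1, Gata4 and Trps1 passed an adjusted p under 0.05 (3066 genes, against 4093 by limma), 0 genes passed the study's threshold (374 by limma), and 5 members passed an unadjusted p under 0.05, as with limma. Zfpm2 had no value among rows above background. A level below the limit of 4.35 cannot be told from background on these arrays, which limits Trps1 in the knock-down and Zfpm2 in both groups. Other means lay little above the limit, in knock-down and control: Gata2 (4.39 and 4.56), Gata6 (4.76 and 4.71), Gata5 (4.75 and 4.95) and Gata3 (4.96 and 4.91). So did the Gata1 control mean (4.71).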
